A study of Mus musculus with 31 samples.

Results

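The expression of 10 genes that move or bind zinc, iron and copper was followed in the mammary gland of lactating mice. They were taken from a list of milk metal genes and matched by symbol, and all 10 were found among the 55379 genes in the files. They are the zinc exporters *Slc30a2* and *Slc30a4*, the zinc and iron importer *Slc39a14*, the metallothioneins *Mt1* and *Mt2*, the iron binding proteins *Trf* and *Ltf*, the transferrin receptor *Tfrc*, the iron exporter *Slc40a1* and the copper pump *Atp7b*. All 10 passed the filter on low counts that left 14362 genes for testing.

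Glands were collected on lactation day 10 from 31 C57BL/6J dams that were bred from 6 weeks of age, and each dam gave 1 library of polyadenylated RNA. From 2 weeks before mating, dams ate a breeder diet with 4 mg/kg folic acid (FA) or the same base diet enriched to 24 mg/kg FA. From embryonic day 13 on they received daily intraperitoneal saline, or fluoxetine in saline at 20 mg/kg. Fluoxetine is a selective serotonin reuptake inhibitor, and the study asked how it and FA, a methyl donor, change gene expression in the gland. By the sample labels, 8 dams had breeder diet + saline, 7 had breeder diet + fluoxetine, 8 had FA diet + saline and 8 had FA diet + fluoxetine. The methods of the study place 8 dams in breeder diet + fluoxetine and 7 in FA diet + fluoxetine, and the labels were followed here.

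Milk supplies the newborn with zinc, iron and copper, and the secretory cells that line the alveoli take these metals from blood and pass them on. Zinc transporters of the ZnT (Slc30) family move zinc out of the cytosol into vesicles or out of the cell, and those of the ZIP (Slc39) family move it in. Metallothioneins hold zinc and copper in the cytosol. Transferrin carries iron to cells that display the transferrin receptor, ferroportin (Slc40a1) lets iron out, and lactoferrin (Ltf) binds iron in milk. Atp7b moves copper into the secretory pathway.

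Total counts per dam lay between 15412542 and 36000439. In 2 libraries the composition stood apart. The 20 most counted genes took 39.3% of the counts in dam 3 of FA diet + fluoxetine and 60.5% in dam 13 of breeder diet + fluoxetine, and 70.1% to 81% in the other 29. The summed level of 10 secretory markers was 59010 CPM (read counts scaled to a common library size by the TMM method) in the first of these dams and 320602 in the second, against 489531 or more in the others. The 6 luminal epithelium markers summed to 476 CPM in the first and 852 in the second, against 675 to 1043 in the others. The TMM factor of the first library was 3.04, which lowered all its CPM. Whether the low secretory sums reflect fewer secretory cells or less RNA per cell cannot be told apart in whole tissue. Results that rest on these 2 dams are given with and without them.

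The 10 genes spanned several orders of magnitude in level. Per kb of the canonical transcript, *Trf* had a mean of 13322 ± 4174 CPM (SD, n = 31) and was the 7th most counted gene of all, with 3.29% of all counts. *Ltf* followed at 257 ± 138 CPM per kb and *Mt1* at 139 ± 93.1 (SD, n = 31 each). The iron carrier of plasma was thus far above the lactoferrin gene in this tissue.

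The middle of the order was close. Mean levels per kb were 18.7 for *Tfrc*, 17.3 for *Slc39a14*, 10.5 for *Slc30a2*, 8.98 for *Mt2* and 5.81 for *Slc30a4*. *Tfrc* exceeded *Slc39a14* in 17 of 31 dams and *Slc30a4* exceeded *Mt2* in 19 of 31, so neither pair was separated beyond its spread. *Slc30a2* exceeded *Slc30a4* in 30 of 31 dams, and *Ltf* exceeded *Mt1* in 24 of 31. These orders depend on the length of the 1 annotated transcript taken per gene. Not divided by length, mean CPM was 36.2 for *Slc30a2* and 33.4 for *Slc30a4*, whose transcripts have 3436 and 5744 bases. It was 6.72 for *Mt2*, with 748 bases. *Atp7b* had 1.40 CPM per kb, and *Slc40a1* was the lowest at 0.217.

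**Figure D1:**
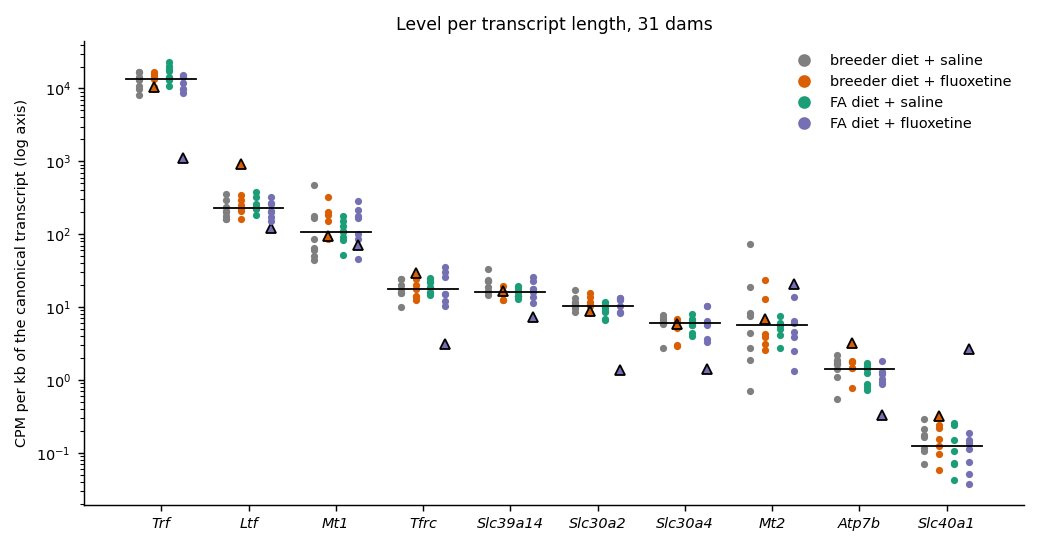
Level of each gene in CPM per kb of its canonical transcript on a log axis, 1 point per dam coloured by group, with the median of 31 dams as a line. Triangles are dam 3 of FA diet + fluoxetine and dam 13 of breeder diet + fluoxetine, and the 2 dams with 0 counts of *Slc40a1* are not drawn. *Trf* sits above all other genes in every dam, and the triangle of dam 3 lies below the other 30 dams for *Trf*, *Ltf*, *Slc30a2*, *Slc30a4*, *Slc39a14*, *Tfrc* and *Atp7b* and above them for *Slc40a1*.

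Spread between dams also differed from gene to gene. The SD of log2 CPM over 31 dams was 0.408 for *Slc39a14*, the steadiest, and 1.27 for *Mt2*, against a median of 0.480 over the genes tested. All genes but *Slc39a14* exceeded that median. The SDs of *Trf* (0.743), *Slc30a2* (0.614) and *Tfrc* (0.640) include dam 3 of FA diet + fluoxetine, far below the other 30 dams. In log2 CPM it had 11.46 for *Trf*, against 14.35 to 15.87. For *Slc30a2* it had 2.281, against 4.508 to 5.893, and for *Tfrc* 3.948, against 5.608 to 7.434. SDs without this dam are not given, so the order of spread and the comparison with that median hold for all 31 dams only. As SD in percent of the mean level, *Slc30a2* was lowest at 28.3%, with *Slc39a14* at 28.9%.

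No metal gene passed the false discovery rate (FDR) of 10% in any of the 3 comparisons (quasi-likelihood test of edgeR, p-values adjusted by Benjamini-Hochberg). DESeq2 and edgeR's likelihood ratio test also called 0 of the 10. Of all genes tested, 0.0209% were called for fluoxetine against saline, and 0% for FA diet against breeder diet and for the interaction. At an unadjusted p of 0.05 or below, 1 of 10 was found for fluoxetine (*Slc40a1*), where 9.92% of all genes were. For FA diet 1 of 10 was found (*Atp7b*, lower with FA diet), where 5.08% of all genes were, 2.95% higher and 2.12% lower, and for the interaction 1 of 10 (*Ltf*, against 3.84% of all genes). The median log2 fold change of the 10 genes was -0.0015 for fluoxetine and -0.19 for FA diet, against 0.019 and 0.017 over all genes.

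**Figure D2:**
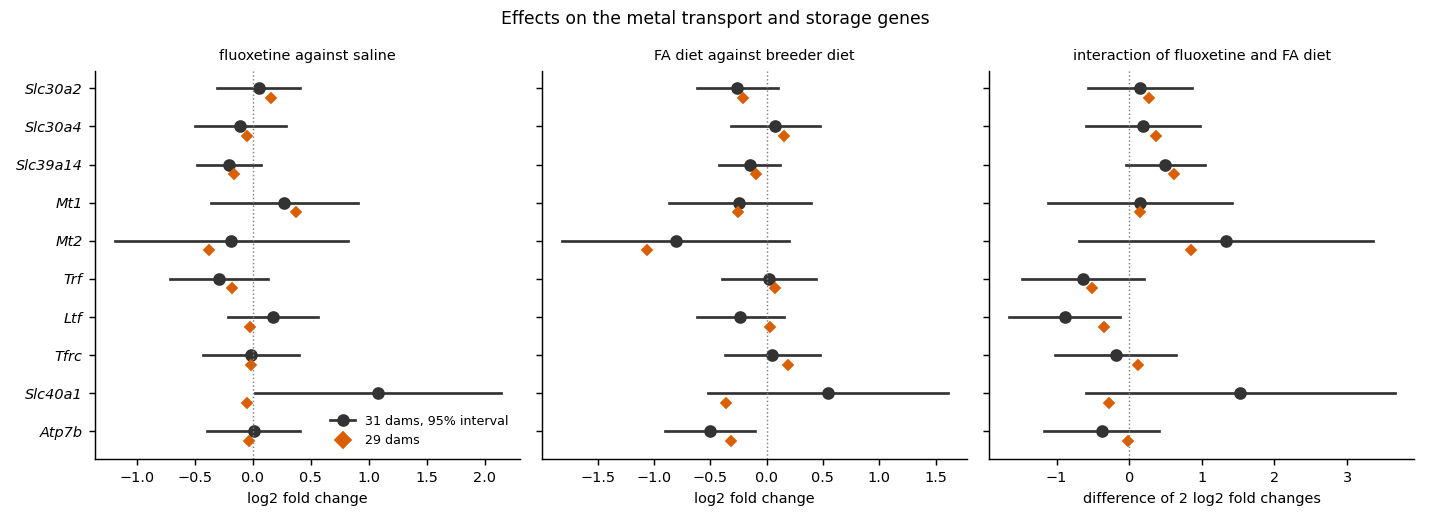
Log2 fold change of each gene for fluoxetine against saline and for FA diet against breeder diet, and their interaction, with 95% intervals from edgeR over 31 dams (dots and lines). Diamonds are the values over the 29 dams without the 2 libraries that stood apart. The interval of *Slc40a1* for fluoxetine runs from 0.02 to 2.14, and its diamond lies at -0.05.

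*Slc30a2* encodes ZnT2, which loads zinc into secretory vesicles for milk. The gene lies on chromosome 4 of GRCm39 at 134070234 to 134081795. With breeder diet + saline it ranged from 29 to 59.4 CPM with a median of 38.3, and with breeder diet + fluoxetine from 28.4 to 53.2 with a median of 38.1. With FA diet + saline the range was 22.7 to 40.1 with a median of 31.5, and with FA diet + fluoxetine it was 4.77 to 45.9 with a median of 39.4. The groups overlapped, and the low end of the last one was dam 3 alone, since its next lowest dam had 28.3 CPM. On the log2 scale the change was 0.05 for fluoxetine (95% interval -0.31 to 0.41) and -0.26 for FA diet (-0.62 to 0.10).

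*Slc30a4* encodes ZnT4, whose loss in the lethal milk mouse gives zinc-poor milk. The gene lies on chromosome 2 at 122523004 to 122544845. Its medians were close, 34.8 CPM (breeder diet + saline), 33.7 CPM (breeder diet + fluoxetine), 34.0 CPM (FA diet + saline) and 33.3 CPM (FA diet + fluoxetine). Within groups it varied more, from 15.7 to 44.3 CPM with breeder diet + saline and from 8.25 to 60.4 with FA diet + fluoxetine. Dam 4 of breeder diet + saline, at 15.7 CPM, lay apart from the other 7 dams of its group, which had 34.0 or more. The fitted log2 fold change was -0.11 for fluoxetine (95% interval -0.50 to 0.29) and 0.08 for FA diet (-0.32 to 0.47).

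*Slc39a14* encodes ZIP14, which takes up zinc and iron that is not bound to transferrin. The gene lies on chromosome 14 at 70540678 to 70588914. With breeder diet + saline it ranged from 75.4 to 176 CPM with a median of 107. The other medians were 79.9 CPM in FA diet + saline, 80.2 in breeder diet + fluoxetine and 87.4 in FA diet + fluoxetine. Breeder diet + saline thus held the highest dam, dam 10 at 176 CPM, but all groups overlapped. For fluoxetine the log2 fold change was -0.20 (95% interval -0.48 to 0.07). The interaction was 0.49 (SE 0.268, unadjusted p = 0.0759, adjusted p = 0.977 with edgeR). Over 29 dams it was 0.62 (unadjusted p = 0.0138, adjusted p = 0.998 with edgeR).

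Reads of *Slc30a2*, *Slc30a4* and *Mt2* share a stretch of genome with genes on the opposite strand, *Extl1* (8508 counts over all dams), *4930417H01Rik* (612) and *Gm45774* (303). The strand option of the counting was not stated, so reads from these pairs cannot be told apart there.

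*Mt1* and *Mt2* are neighbours on chromosome 8, at 94905710 to 94906955 and at 94898819 to 94900207. Transcription of metallothioneins is known to rise with zinc through the metal response element, which the factor MTF-1 binds. The windows from 250 bases before to 50 after the start listed by RefSeq, located in GRCm39, are shown for both genes. Zinc and MTF-1 activity were not measured, and a tie of these letters to the levels was not tested. Capitals mark the core letters TGCGCNC or TGCACNC, searched on both strands. The window of *Mt1* is chr8:94905467-94905766 and that of *Mt2* is chr8:94898996-94899295, both on the plus strand.

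Mt1: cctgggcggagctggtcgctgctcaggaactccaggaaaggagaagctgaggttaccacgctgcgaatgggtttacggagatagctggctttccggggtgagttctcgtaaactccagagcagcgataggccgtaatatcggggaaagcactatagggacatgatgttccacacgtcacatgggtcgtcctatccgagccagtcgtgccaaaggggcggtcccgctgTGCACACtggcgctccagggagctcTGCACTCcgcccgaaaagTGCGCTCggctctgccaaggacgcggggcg
Mt2: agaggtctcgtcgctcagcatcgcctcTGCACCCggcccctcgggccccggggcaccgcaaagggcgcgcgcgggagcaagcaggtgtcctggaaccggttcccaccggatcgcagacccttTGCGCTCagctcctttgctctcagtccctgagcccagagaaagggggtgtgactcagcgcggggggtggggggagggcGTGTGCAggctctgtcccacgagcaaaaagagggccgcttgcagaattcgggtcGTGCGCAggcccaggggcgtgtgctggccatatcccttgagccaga

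The *Mt1* window held 3 cores, 1 of them wholly before the start, and the *Mt2* window 4, 3 of them wholly before it. By the GENCODE positions the *Mt2* window lies wholly within its gene, which begins upstream of the start listed by RefSeq. Of 32851 promoter windows, 25.7% held at least 1 core and 1.97% held 3 or more. The windows of *Slc30a4* held 3 cores, those of *Slc30a2* and of the zinc exporter *Slc30a1* 2 each, and that of *Atp7b* 1. The *Slc30a2* window, chr4:134070527-134070826, also lies wholly within its gene. *Tfrc* has 2 windows, with 2 cores that overlap each other in the first and 0 in the second, and the window of *Ltf* held 0. No window found for these genes held TTCNNNGAA, the letters bound by STAT factors, which 8.3% of all windows held. The RefSeq table holds no window for *Trf*, *Slc39a14* and *Slc40a1*.

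*Mt1* varied widely from dam to dam. With breeder diet + saline it ranged from 33.5 to 365 CPM with a median of 57.7. With breeder diet + fluoxetine the range was 66.6 to 248 with a median of 115, with FA diet + saline 40.2 to 134 with a median of 83.4, and with FA diet + fluoxetine 35.1 to 218 with a median of 102. Both fluoxetine medians lay above their saline medians, with full overlap of the dams. For fluoxetine the log2 fold change was 0.27 (95% interval -0.36 to 0.91, adjusted p = 0.807 with edgeR). Its size depended on single dams. When each dam was left out in turn it ran from 0.14 without dam 2 of breeder diet + fluoxetine (unadjusted p = 0.655 with edgeR) to 0.58 without dam 3 of breeder diet + saline, the highest dam (unadjusted p = 0.0342, adjusted p = 0.520 with edgeR).

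*Mt2* was lower and more variable. In saline dams the median was 4.50 CPM on breeder diet and 4.21 on FA diet, and in fluoxetine dams it was 3.17 and 3.95. Over all dams it ran from 0.524 to 55.7 CPM, a 106-fold range, which rested on 13 to 1004 counts. The steadiest group was FA diet + saline, at 2.07 to 5.72 CPM. Dam 3 of breeder diet + saline was the highest of all dams for both metallothioneins. For FA diet the log2 fold change was -0.81 (95% interval -1.82 to 0.20), and it was -0.20 without that dam. Leaving out dam 3 of FA diet + fluoxetine instead gave -1.03. Over 29 dams it was -1.06 (unadjusted p = 0.0508, adjusted p = 0.682 with edgeR).

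**Figure D3:**
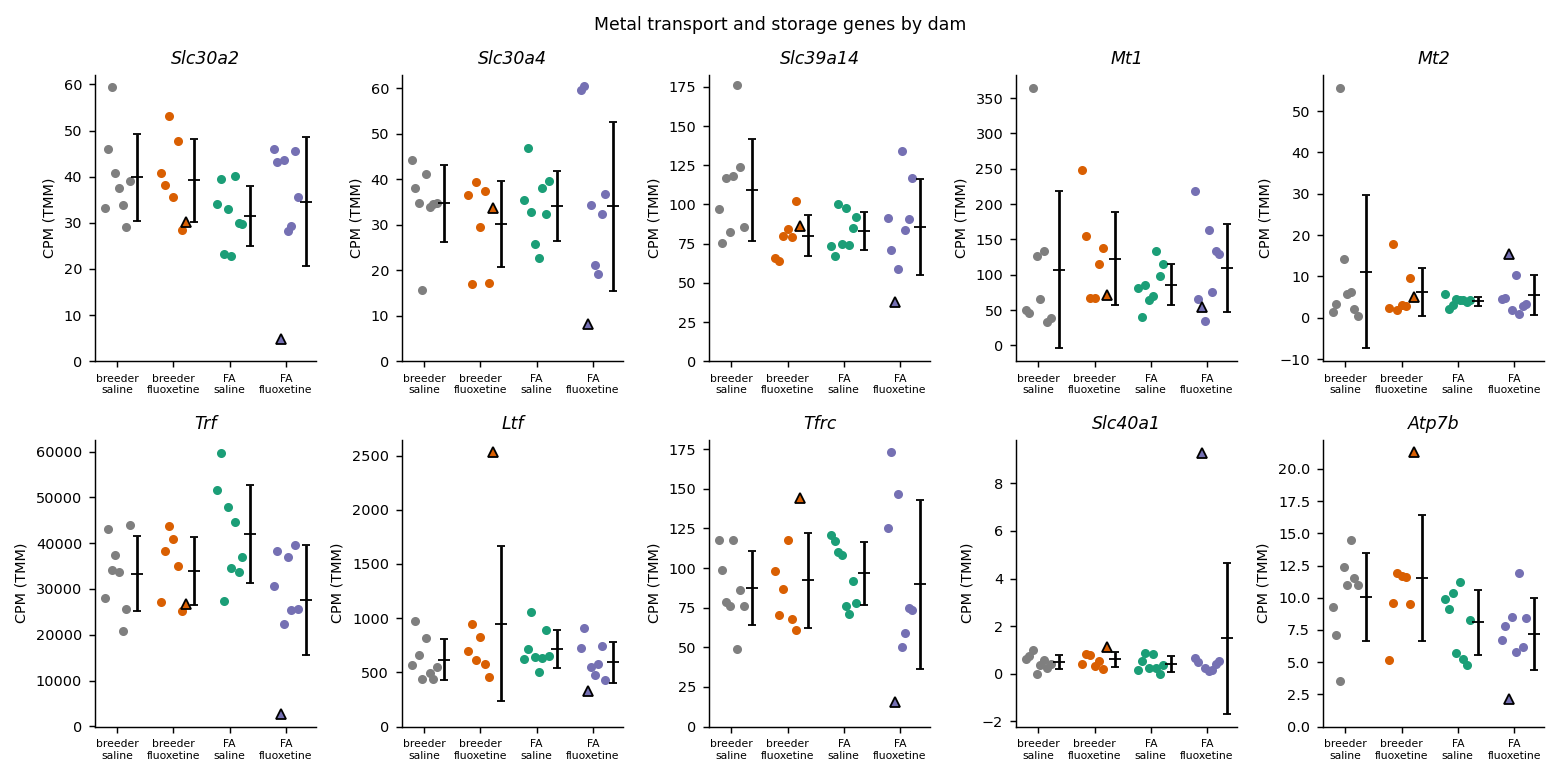
CPM scaled by TMM for each gene and dam in the 4 groups, with the mean and SD of each group to the right of its points, on a linear axis that differs between panels. Triangles are dam 3 of FA diet + fluoxetine and dam 13 of breeder diet + fluoxetine. *Mt1* and *Mt2* share their highest dam (365 and 55.7 CPM), *Ltf* is highest in dam 13 (2530 CPM) and *Slc40a1* in dam 3 of FA diet + fluoxetine (9.28 CPM).

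*Trf* encodes transferrin, which the mouse mammary gland makes itself and secretes into milk. The gene lies on chromosome 9 at 103081200 to 103107814. With breeder diet + saline it ranged from 20933 to 43892 CPM with a median of 33942, and with breeder diet + fluoxetine from 25268 to 43839 with a median of 35103. With FA diet + saline the range was 27465 to 59703 with a median of 40708, and with FA diet + fluoxetine it was 2822 to 39578 with a median of 28041. The highest values were in FA diet + saline, and dam 3 of FA diet + fluoxetine was lowest. *Trf* took 0.853% of the counts of that dam and between 1.99% and 4.79% in the others.

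The log2 fold change of *Trf* for fluoxetine was -0.29 (95% interval -0.71 to 0.13, adjusted p = 0.654 with edgeR). The interaction was -0.63 (SE 0.414, unadjusted p = 0.137, adjusted p = 0.977 with edgeR). Over 29 dams the interaction was -0.51 (SE 0.248, unadjusted p = 0.0489, adjusted p = 0.998 with edgeR). Hepatocyte markers were near 0: the 5 together reached at most 1.03 CPM in any dam, none passed the filter, and *Ttr* and *Cyp3a11* had no count.

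*Ltf* encodes lactoferrin, an iron binding protein of milk and of neutrophil granules. The gene lies on chromosome 9 at 110848339 to 110871835. With breeder diet + saline it ranged from 442 to 977 CPM with a median of 558, and with breeder diet + fluoxetine from 453 to 2530 with a median of 697. With FA diet + saline the range was 500 to 1061 with a median of 644, and with FA diet + fluoxetine it was 332 to 908 with a median of 567. A single dam, dam 13 of breeder diet + fluoxetine, stood far above the rest of its group, of which the next had 944 CPM.

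The interaction of *Ltf* was -0.89 on the log2 scale (SE 0.379, unadjusted p = 0.0249, adjusted p = 0.977 with edgeR). It was -0.42 without dam 13 (unadjusted p = 0.168) and -0.34 over 29 dams (unadjusted p = 0.218, edgeR). The 7 neutrophil markers summed to between 0.0600 and 4.84 CPM over all dams and to 2.86 in dam 13, and 1 of them passed the filter. The 10 acute phase genes summed to 1460 CPM in dam 13, the highest of all dams, and their part in the *Ltf* value was not tested.

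*Tfrc* and *Slc40a1* carry iron into and out of cells, and both transcripts hold iron responsive elements, short hairpins that the iron regulatory proteins bind when iron is low. In the 3′ UTR this steadies the transcript, and in the 5′ UTR it blocks translation. The elements found in the canonical transcripts (GENCODE vM39, GRCm39) are shown since they tie these genes to ferritin, whose *Fth1* and *Ftl1* transcripts carry the same loop. Capitals mark the loop CAGTGN. Positions are counted from the first base of the transcript.

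Tfrc, 3326 to 3342: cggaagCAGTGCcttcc
Tfrc, 3705 to 3721: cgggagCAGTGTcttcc
Tfrc, 3770 to 3786: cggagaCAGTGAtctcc
Tfrc, 3817 to 3833: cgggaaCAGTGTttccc
Slc40a1, 172 to 188: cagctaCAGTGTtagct
Fth1, 93 to 109: cttcaaCAGTGCttgaa
Ftl1, 84 to 100: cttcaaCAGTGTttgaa

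The pattern asked for a C, a stem of 5 bases, the loop with A, C or T as its last base, and 5 bases that pair with the stem. It occurred in 309 of 78289 canonical transcripts (0.395%). The 4 sites of *Tfrc* lie in its 3′ UTR, and those of *Slc40a1*, *Fth1* and *Ftl1* in the 5′ UTR. No match was found in the canonical transcript of the iron importer *Slc11a2*. Control of translation is not seen in RNA levels.

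*Tfrc* lies on chromosome 16 at 32427556 to 32451612. In saline dams the median was 82.2 CPM on breeder diet and 99.9 on FA diet, and in fluoxetine dams it was 86.5 and 74.2. FA diet + fluoxetine was the most spread, from 15.3 CPM in dam 3 to 173 in dam 2, and it held both the lowest and the highest dam of the series. On the log2 scale the change was -0.01 for fluoxetine (95% interval -0.43 to 0.40) and 0.05 for FA diet (-0.37 to 0.47).

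*Slc40a1* encodes ferroportin, the only known exporter of iron from cells, and is strongly expressed in macrophages. It lies on chromosome 1 at 45947211 to 45965683. In 30 dams it lay between 0 and 1.11 CPM, with 0 to 35 counts, and in dam 3 of FA diet + fluoxetine it was 9.28 CPM (531 counts). The next dam of that group had 0.645 CPM. The log2 fold change for fluoxetine was 1.08 (SE 0.521, unadjusted p = 0.0453, adjusted p = 0.496 with edgeR). Without that dam it was 0.06 (unadjusted p = 0.880), and DESeq2, which replaces counts it takes as outliers, gave 0.08 (unadjusted p = 0.822). The 7 macrophage markers summed to 88.7 CPM in that dam and to 18.1 at most in the others, and 5 of them passed the filter. *Vsig4* and *Marco* had no count in any dam. The part of macrophage RNA in the *Slc40a1* value was not tested.

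*Atp7b* is the copper pump mutated in the toxic milk mouse, whose milk is poor in copper. It lies on chromosome 8 at 22482801 to 22550352. With breeder diet + saline it ranged from 3.55 to 14.5 CPM with a median of 11, and with breeder diet + fluoxetine from 5.14 to 21.3 with a median of 11.6. With FA diet + saline the range was 4.77 to 11.2 with a median of 8.70, and with FA diet + fluoxetine it was 2.13 to 11.9 with a median of 7.28. Both FA diet medians lay below both breeder diet medians, while the ranges overlapped. Over both drugs the mean was 10.7 ± 4.07 CPM with breeder diet (SD, n = 15) and 7.63 ± 2.60 with FA diet (SD, n = 16).

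The log2 fold change of *Atp7b* for FA diet was -0.50 (SE 0.195, 95% interval -0.90 to -0.10, unadjusted p = 0.0151, adjusted p = 0.933 with edgeR), and it failed the correction. It stayed between -0.57 and -0.39 when each dam was left out in turn, with unadjusted p between 0.00395 and 0.0467 in edgeR. With a block on the dam number it was -0.16 (unadjusted p = 0.501, edgeR). Over 29 dams it was -0.32 (unadjusted p = 0.0569, edgeR), since the highest dam of breeder diet (21.3 CPM) and the lowest of FA diet (2.13 CPM) are the 2 dams left out. For fluoxetine it was 0.01 (95% interval -0.39 to 0.41).

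In the 2 dams that stood apart, *Tfrc* and *Atp7b* lay on opposite sides of their group medians. In dam 3 of FA diet + fluoxetine, *Trf* was 10.8-fold, *Slc30a2* 9.03-fold, *Tfrc* 4.87-fold, *Slc30a4* 4.17-fold, *Atp7b* 3.66-fold, *Slc39a14* 2.41-fold and *Ltf* 1.75-fold below the median of the other 7 dams of its group. In CPM each was the lowest of all 31 dams. The TMM factor of this library was 3.04, against 0.716 to 1.57 in the others, which lowered all its CPM. As a share of its total count, *Trf* and *Slc30a2* were still lowest there, but *Tfrc*, *Slc30a4*, *Atp7b*, *Slc39a14* and *Ltf* were not. *Ltf* had 18997 of 18919573 counts there and 12519 of 23696755 in dam 11 of breeder diet + saline. *Slc40a1* was 23.6 times that median, and *Mt2* 4.50 times it. *Hmox1*, which breaks down heme, was 6.68 times its group median and *Ftl1*, the ferritin light chain, 1.94 times, while *Fth1*, the heavy chain, was 0.968 times. In dam 13 of breeder diet + fluoxetine, *Ltf* was 3.85 times the median of the other 6 dams, *Atp7b* 2.01 times and *Tfrc* 1.84 times, and *Slc30a4* 1.02 times. *Lcn2*, which binds bacterial iron carriers, was 3.18 times its group median there. These are values of single dams, with no test.

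Around the 10 genes, 69 further genes of zinc, iron and copper handling were listed, of which 57 passed the filter on low counts. Among zinc importers, *Slc39a8* (ZIP8, a close relative of ZIP14) was the highest at 95.4 ± 26.6 CPM per kb (SD, n = 31), and *Slc39a1* followed at 10.2. Of the other ZnT genes *Slc30a9* had 3.14 and *Slc30a7* 2.78 CPM per kb, below *Slc30a2* and *Slc30a4*, and *Slc30a8* and *Slc30a10* had no count. *Mtf1*, the zinc sensor, had 0.534 CPM per kb and *Mt3* 0.0285.

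Of iron genes the ferritin chains *Fth1* (822 CPM per kb) and *Ftl1* (355) and *Lcn2* (587) were the highest, and *Cp*, the plasma ferroxidase, had 20.3. *Hephl1*, a membrane ferroxidase, had 5.89 CPM per kb and its relative *Heph* 0.130. *Hamp2* had no count, and *Hamp*, the hepcidin gene, had 8 counts over all dams. Of copper genes *Atox1*, the chaperone that hands copper to Atp7a and Atp7b, had 43.4 CPM per kb and *Sod1* 21.1. Not divided by length, *Sod1* was the higher, at 112 CPM against 26.4. The transcripts taken have 5315 bases for *Sod1* and 608 for *Atox1*. *Atp7a*, the second copper pump, had 0.0522 CPM per kb, so *Atp7b* at 1.40 was the higher of the pair.

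**Figure D4:**
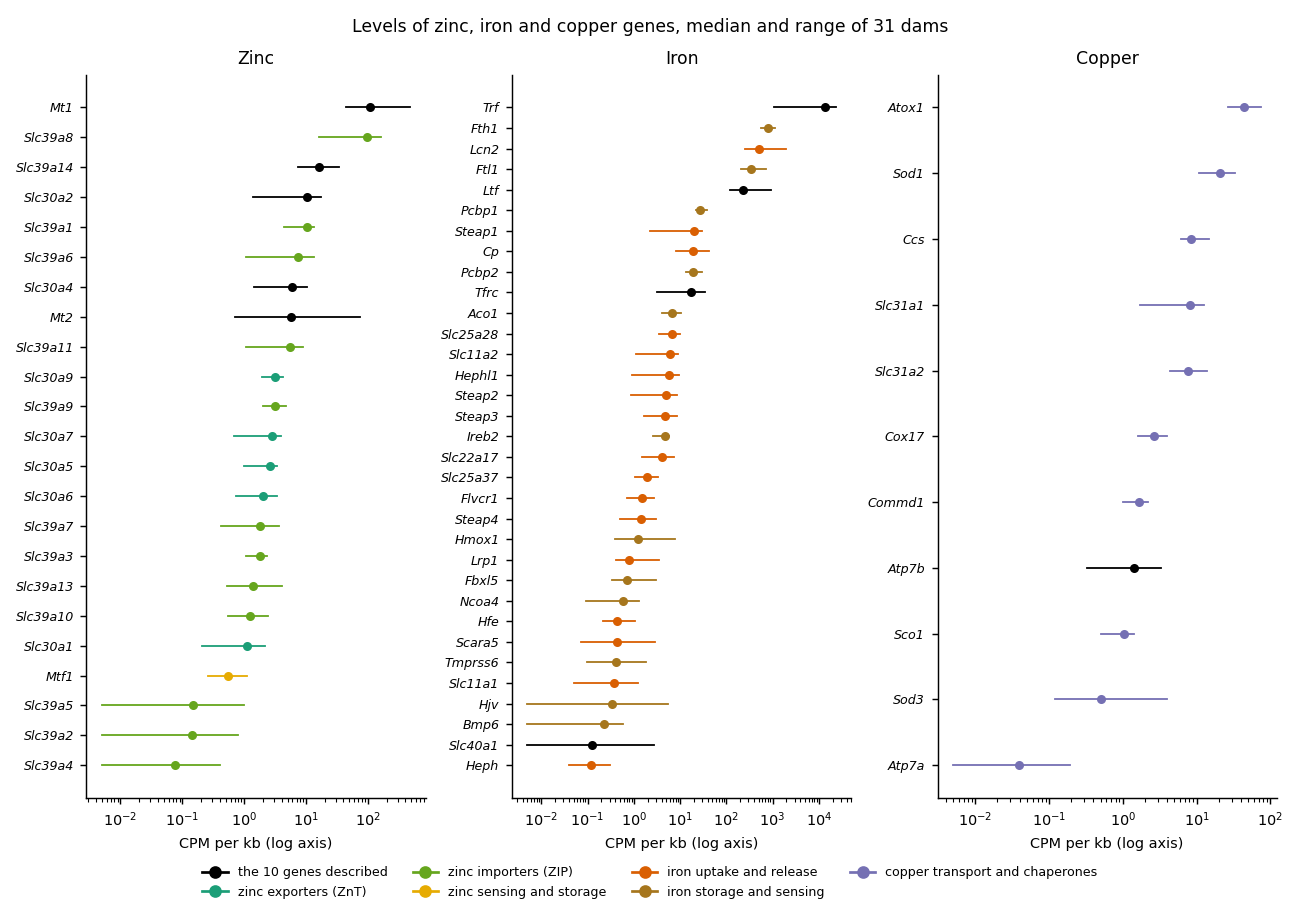
Median and range over 31 dams of zinc, iron and copper genes past the filter, in CPM per kb of the canonical transcript on log axes that differ between panels. The 10 genes described are black, and bars that reach the left edge start at 0. *Trf* has the highest median of all, and *Slc39a8* lies between *Mt1* and *Slc39a14* among zinc genes.

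None of the 57 passed the FDR of 10% in edgeR in any comparison. For fluoxetine, 5 of 57 were higher and 3 lower at an unadjusted p of 0.05 or below, where 6.94% of all genes were higher and 2.98% lower. *Slc39a11* (ZIP11) had a log2 fold change of -0.55 (SE 0.157, unadjusted p = 0.00127, adjusted p = 0.299 with edgeR). Its medians were 25.8 and 27.9 CPM in the saline groups and 18.7 and 17.8 in the fluoxetine groups, and over 29 dams the value was -0.49 (adjusted p = 0.244 with edgeR). *Slc30a1*, the zinc exporter of the cell surface, was at -0.41 (adjusted p = 0.497), and *Ireb2*, an iron regulatory protein, at -0.23 (adjusted p = 0.499, edgeR).

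The 5 with higher values were iron genes, from the 2 lists that held 17 and 12 of the 57 genes. As whole lists these did not lie higher. For fluoxetine, 8 of 17 genes of iron uptake and release were above 0 (median log2 fold change -0.014). Of iron storage and sensing 5 of 12 were (median -0.054). *Lcn2* was at 0.60 (adjusted p = 0.409), the mitochondrial iron importers *Slc25a37* at 0.37 (adjusted p = 0.391) and *Slc25a28* at 0.30 (adjusted p = 0.476), by edgeR. *Hmox1* was at 0.64 (adjusted p = 0.492) and *Slc11a1*, an iron pump of macrophages, at 0.61 (adjusted p = 0.490, edgeR). Over 29 dams *Lcn2* was at 0.46 and *Slc25a37* at 0.38, with unadjusted p of 0.0243 and 0.0103 in edgeR. *Hmox1* was then at 0.29 (unadjusted p = 0.231), *Slc11a1* at 0.57 (0.0666), *Slc25a28* at 0.28 (0.0541) and *Slc30a1* at -0.34 (0.0601), so these 4 no longer reached an unadjusted p of 0.05 in edgeR. The 7 of the 57 that did over 29 dams were *Slc39a11*, *Slc25a37*, *Lcn2* and *Ireb2* as before, and in addition *Ftl1* (0.23), *Heph* (-0.62) and *Atp7a* (-1.36). The share of all genes at that p over 29 dams is not given, so this count cannot be set against it.

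For FA diet none of the 57 reached an unadjusted p of 0.05 with edgeR's quasi-likelihood test, DESeq2 or the likelihood ratio test. Over 29 dams *Hmox1* did, at -0.66 (unadjusted p = 0.00944, adjusted p = 0.548 with edgeR). For the interaction 3 were higher and 1 lower, where 2.65% and 1.19% of all genes were. *Fbxl5*, the iron sensor that marks Ireb2 for decay, was at 1.09 (unadjusted p = 0.00781), *Slc39a2* at 2.06 (0.0100), *Atp7a* at 2.01 (0.0494) and *Lcn2* at -1.02 (0.0295), each with an adjusted p of 0.977 in edgeR. *Slc39a2* and *Atp7a* rest on few counts, with 430 and 342 over all 31 dams. Over 29 dams *Fbxl5* was at 0.68 (unadjusted p = 0.0359) and *Slc39a2* at 2.13 (0.0103), while *Atp7a* at 1.01 (0.299) and *Lcn2* at -0.52 (0.193, edgeR) no longer reached a p of 0.05. The highest value of *Fbxl5*, 11.6 CPM, was in dam 3 of FA diet + fluoxetine.

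The 45 pairs among the 10 genes were compared over the 31 dams, with Pearson's r of log2 CPM, two-sided permutation p (100000 resamples) and Benjamini-Hochberg adjustment over the 45 pairs. In all, 9 pairs had an adjusted p of 0.10 or below. *Mt1* and *Mt2* had r = 0.58 (p = 5.00e-04, adjusted p = 0.00750) and Spearman's rho = 0.48 (p = 0.00694, adjusted p = 0.0781) by permutation. Without the 2 dams farthest from the *Mt1* median r was 0.54, and over the 29 dams without the libraries that stood apart it was 0.66. Within groups, as residuals from the 4 group means, r was 0.60.

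*Slc30a4* and *Tfrc* had r = 0.75 (p = 3.00e-05, adjusted p = 0.00135) and rho = 0.51 (p = 0.00361, adjusted p = 0.0541) by permutation. Without the 2 dams farthest from the *Slc30a4* median r was 0.58, over 29 dams it was 0.59, and among residuals it was 0.75. *Ltf* and *Tfrc* had r = 0.60 (p = 0.00348, adjusted p = 0.0313) and rho = 0.55 (p = 0.00153, adjusted p = 0.0541) by permutation, and r was 0.50 in both smaller sets of dams. A zinc exporter and lactoferrin thus varied with the transferrin receptor from dam to dam.

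For the other 6 pairs, r no longer had an adjusted p of 0.10 or below without the 2 farthest dams or over 29 dams. *Slc30a2* and *Trf* had r = 0.81 (p = 0.00199, adjusted p = 0.0224) but rho = 0.38 (p = 0.0373, adjusted p = 0.280) by permutation, and r was 0.31 without the 2 farthest dams and 0.27 over 29 dams. Among residuals from the group means, with all 31 dams, it had r = 0.90 and rho = 0.67 (adjusted p = 0.00315 by permutation). *Slc30a2* and *Slc30a4* had r = 0.67 (p = 3.90e-04, adjusted p = 0.00750) and rho = 0.52 (p = 0.00345, adjusted p = 0.0541) by permutation, and r was 0.41 (p = 0.0274, adjusted p = 0.206) and 0.40 (p = 0.0327, adjusted p = 0.160) in the smaller sets. Its ranks held better, with rho = 0.47 (p = 0.0101, adjusted p = 0.120) without the farthest dams, 0.45 (p = 0.0144, adjusted p = 0.0945) over 29 dams and 0.56 (adjusted p = 0.0127) among residuals, by permutation. *Trf* and *Slc40a1*, the one negative pair, had r = -0.59 (p = 0.0115, adjusted p = 0.0574) and rho = -0.16 (p = 0.378, adjusted p = 0.634) by permutation, and r was -0.12 and -0.03. The pairs of *Tfrc* with *Trf* (r = 0.67) and with *Slc30a2* (0.66), and of *Slc30a4* with *Trf* (0.56), had r between 0.10 and 0.22 in the smaller sets. The relations of these 3 pairs and of *Trf* with *Slc40a1* rest on the dams left out, and their rho among residuals lay between -0.20 and 0.33. Dam 3 of FA diet + fluoxetine was the lowest for *Slc30a2*, *Slc30a4*, *Trf* and *Tfrc*.

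**Figure D5:**
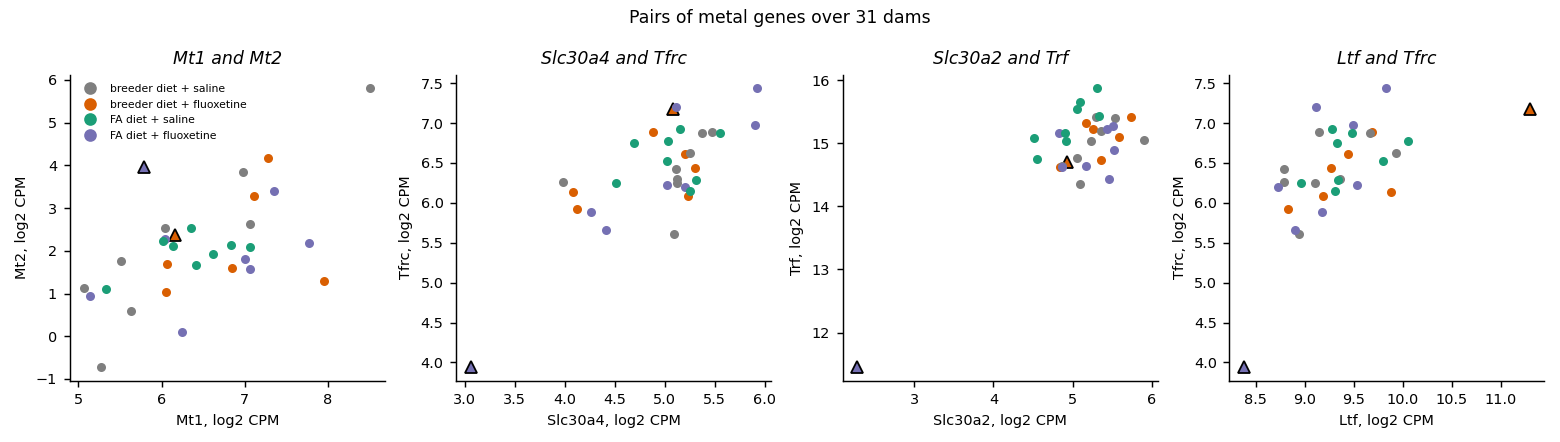
Log2 CPM of 4 pairs of genes, 1 point per dam coloured by group, with dam 3 of FA diet + fluoxetine and dam 13 of breeder diet + fluoxetine as triangles. *Mt1* with *Mt2* (r = 0.58) and *Slc30a4* with *Tfrc* (r = 0.75) slope over the whole range, while *Slc30a2* with *Trf* (r = 0.81) is drawn out by the triangle of dam 3 at the lower left.

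The genes most like 4 of the metal genes were ranked by Pearson's r of log2 CPM over the 31 dams, among 4710 genes with a mean of at least 10 CPM, as a description. For *Trf* they included *Clu* (0.96), which encodes the secreted chaperone clusterin, and *Asns* (0.94). *Clu* was also first over 29 dams, with r = 0.94. For *Tfrc* they were *Selenos* (0.96), a selenoprotein of the endoplasmic reticulum, *Eif5a* (0.93) and *Odc1* (0.93), and *Selenos* was first over 29 dams as well (0.94). For *Slc30a4* they were *Nipsnap3b* (0.92), *Atp13a3* (0.91) and *Galnt1* (0.88), and the first 2 also led over 29 dams, at 0.87 each. For *Slc30a2* they were *Prss8* (0.92), *Scamp2* (0.92) and *Peds1* (0.91), while over 29 dams *Atp6v1b2* (0.81), a subunit of the vacuolar proton pump, was first. All points share their library's depth and composition.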

How the data were processed

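The authors trimmed paired-end reads with Trim Galore 0.4.4, used Hisat2 for mapping to GRCm39 and htseq-count (intersection-nonempty) for counting, and deposited raw counts per Ensembl gene. The annotation release and strand option are not given in the sources used here. Symbols and positions came from GENCODE vM39, which held 54712 of the 55379 genes and all 160 genes listed. Counts were filtered by group with filterByExpr of edgeR 4.0.16 (R 4.3.3), normalized by TMM, and tested with the robust quasi-likelihood test as contrasts of a model with 4 groups, at an FDR of 10%. Log2 CPM carried a prior count of 2. Alternatives were the likelihood ratio test, DESeq2 1.42.0, no filter, RLE factors, factors without the 20 most abundant genes, a block on the dam number, each dam left out, and, chosen after seeing the data, leaving out 2 libraries with under 65% of counts in those 20 genes. The lowest chi-square per degree of freedom between libraries of a group was 14.5, so each library was counted as 1 dam. The depth of 15412542 counts or more per dam, much of it in those 20 genes, limits rare transcripts. In the group comparisons, p-values weigh a difference against the spread between dams.

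Named are the 10 genes, listed pathway genes past the FDR or with an unadjusted p of 0.05 or below, the 2 highest per kb of each list, and the 3 genes most like each of 4 metal genes. A gene that falls under this rule is not reported here. Other names (*Heph*, *Hephl1*, *Hamp*, *Slc11a2* and genes without counts) were chosen after their values were seen. The genes and lists were chosen with earlier results of these data known. The scripts were tested on simulated data.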

Additional observations from a re-analysis of the deposited data

Results flagged for a closer look

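In all, 40 groups of log2 CPM values (10 genes in 4 groups, prior count of 2) were examined by Dixon's criterion for a dam apart from its group. In 7 a dam lay apart, where chance gives about 1 in 20 groups. The values below are in CPM, on which other dams can stand out. Dam 3 of breeder diet + saline, the highest for *Mt1* and *Mt2*, was not flagged on the log2 scale. Of the 7, 4 came from dam 3 of FA diet + fluoxetine. *Slc30a2* was at 4.77 CPM there against 28.3 to 45.9 in the other dams of the group, *Trf* at 2822 against 22303 to 39578, *Atp7b* at 2.13 against 5.79 to 11.9, and *Slc40a1* at 9.28 against 0.131 to 0.645. The summed secretory markers of that dam were 59010 CPM.

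*Ltf* was at 2530 CPM in dam 13 of breeder diet + fluoxetine against 453 to 944 in its group. Dam 4 of breeder diet + saline was low for *Slc30a4* (15.7 CPM against 34.0 to 44.3). It was also low for *Slc40a1*, with 0 CPM against 0.247 to 0.999 and 0 counts against 7 or more. Its secretory markers summed to 734620 CPM, within the range of its group.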

How the results depend on the processing

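None of the 10 metal genes was called at an FDR of 10% in any comparison under any alternative run. For the 57 pathway genes, calls at that FDR are given for the main test and over 29 dams only, with none called in either. The number of all genes called for fluoxetine was 45 with the likelihood ratio test, 70 with DESeq2, 1 without a filter and 0 with the replicate block, and 0 to 19 when each dam was left out. Without a filter, unadjusted p of 0.05 or below were reached by 3260 genes for fluoxetine, 2554 for FA diet and 2164 for the interaction. Leaving out each dam gave 1059 to 1943, 556 to 1000 and 429 to 755 genes. Of the 10 metal genes, those at that p for fluoxetine became 0 with DESeq2, the block and 29 dams, those for FA diet 0 with the block and 29 dams, and those for the interaction 0 with the block and 2 with 29 dams. Leaving out each dam gave 0 to 2, 1 to 2 and 0 to 2. Of the 57 pathway genes, 1 was at that p for FA diet with the block and with 29 dams, and leaving out each dam gave 4 to 13, 0 to 2 and 2 to 6. For the block and for 29 dams the share of all genes at that p is not given, so these counts cannot be set against it. Pairs of metal genes with an adjusted p of 0.10 or below numbered 16 among residuals, 3 without the farthest dams and 5 over 29 dams.

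The labels do not say that dam numbers pair animals, and of 28 same-numbered pairs 12 had a correlation of residuals over 0.1 (-0.22 to 0.43), and 4 of 27 dams correlated best with their own number. With the replicate block, directions turned for *Ltf* (-0.04) and *Atp7b* (-0.42) for fluoxetine, *Trf* (-0.02) and *Slc40a1* (-0.36) for FA diet, and *Slc30a2* (-0.11), *Mt1* (-0.73) and *Atp7b* (0.05) for the interaction. With DESeq2, *Slc40a1* turned to -0.46 for FA diet and -0.48 for the interaction. Over 29 dams, *Ltf* (-0.02), *Slc40a1* (-0.05) and *Atp7b* (-0.03) turned for fluoxetine, *Ltf* (0.03) and *Slc40a1* (-0.36) for FA diet, and *Tfrc* (0.12) and *Slc40a1* (-0.28) for the interaction. Leaving out single dams turned *Mt2* (-0.47 to 0.42), *Ltf* (-0.06 to 0.24), *Tfrc* (-0.12 to 0.06) and *Atp7b* (-0.10 to 0.07) for fluoxetine. It turned *Slc30a4* (-0.01 to 0.14), *Mt1* (-0.35 to 0.06), *Trf* (-0.03 to 0.10), *Tfrc* (-0.05 to 0.12) and *Slc40a1* (-0.47 to 0.66) for FA diet, and *Mt1* (-0.47 to 0.42) and *Slc40a1* (-0.50 to 1.80) for the interaction. All of these had unadjusted p above 0.05 in the alternatives named. The cause was not tested. Depth limits *Slc40a1*, *Slc39a2* and *Atp7a*, which have few counts.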
